A study of Mus musculus with 12 samples.

Results

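The Cyp2c genes encode cytochrome P450 enzymes of subfamily 2C, and 10 of them are described here in the livers of germ-free mice given growth hormone (GH). The members Cyp2c29, Cyp2c37, Cyp2c38, Cyp2c39, Cyp2c40, Cyp2c44, Cyp2c50, Cyp2c54, Cyp2c67 and Cyp2c70 were taken by symbol from a table of 38087 genes, and all 10 had enough reads to be tested. Another 6 rows of the table carry a Cyp2c symbol. Total RNA was sequenced from 12 livers of male C57BL/6j mice aged 13 to 16 weeks, all germ-free, that is, raised without microorganisms. In the GH group (n = 6) each mouse was injected under the skin with recombinant human GH, 50 µg, and in the PBS group (n = 6) with phosphate-buffered saline. The labels do not say whether this dose is per injection or per day. Both groups received 2 injections a day for 5 days, at ZT 2 and ZT 14, and the livers represent ZT 2, where ZT counts hours after lights on. No conventionally raised mice and no females were part of these groups, and the injected hormone was human while the receiving animals were mice. Library totals lay between 19523104 and 23278931 exonic counts, and levels are given as CPM, in which each library's counts are scaled to a common total by its size and its TMM factor.

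P450 enzymes of subfamily 2C sit in the endoplasmic reticulum, mostly of hepatocytes, and insert oxygen into drugs, steroids, retinoids and fatty acids with electrons passed on by P450 oxidoreductase. Several mouse members turn arachidonic acid into epoxides or hydroxylated products that act as local signals. In rodents the pituitary releases GH in separate pulses in males and more evenly in females, and this pattern sets the level of many P450 genes in the liver. The CAR and PXR receptors, which sense foreign compounds, and HNF4A, a factor that marks hepatocytes, are known regulators of Cyp2c genes.

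All 10 members lie on mouse chromosome 19 (GRCm38, GENCODE M21 annotation). Of these, 9 belong to 1 cluster, whose outermost members start at base 39269405 (Cyp2c29) and end at base 40187333 (Cyp2c70). Cyp2c44, which the annotation now calls Cyp2c23, stands apart at chr19:44005022-44029208 on the minus strand. RefSeq's GRCm38.p6 table of gene starts held 8 of the 10 members, and each entry runs over 250 bases before and 50 bases after the start. The following 4 are shown because Cyp2c29, Cyp2c38 and Cyp2c39 were lower in GH livers while Cyp2c70 was higher. They are Cyp2c29 (chr19:39286835-39287134, plus strand), Cyp2c38 (chr19:39463026-39463325, minus strand), Cyp2c39 (chr19:39510572-39510871, plus strand) and Cyp2c70 (chr19:40187237-40187536, minus strand). The RefSeq start of Cyp2c29 differs from the GENCODE start given above. Its window lies inside the GENCODE gene, which runs from base 39269405 to base 39330713. Capitals mark the letters CAAAGTCNA on the strand shown, a direct-repeat form bound by HNF4A, where N is any base.
Cyp2c29: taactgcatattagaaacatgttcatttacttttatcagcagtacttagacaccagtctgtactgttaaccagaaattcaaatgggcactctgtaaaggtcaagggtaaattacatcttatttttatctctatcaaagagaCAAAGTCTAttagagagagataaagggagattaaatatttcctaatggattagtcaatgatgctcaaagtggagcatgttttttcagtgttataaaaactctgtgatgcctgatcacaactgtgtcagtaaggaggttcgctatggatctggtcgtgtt
Cyp2c38: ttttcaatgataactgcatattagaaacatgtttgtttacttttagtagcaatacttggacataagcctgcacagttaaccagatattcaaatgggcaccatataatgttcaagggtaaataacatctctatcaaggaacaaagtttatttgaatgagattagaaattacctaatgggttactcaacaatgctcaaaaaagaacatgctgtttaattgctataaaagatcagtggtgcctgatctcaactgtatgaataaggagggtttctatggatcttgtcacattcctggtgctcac
Cyp2c39: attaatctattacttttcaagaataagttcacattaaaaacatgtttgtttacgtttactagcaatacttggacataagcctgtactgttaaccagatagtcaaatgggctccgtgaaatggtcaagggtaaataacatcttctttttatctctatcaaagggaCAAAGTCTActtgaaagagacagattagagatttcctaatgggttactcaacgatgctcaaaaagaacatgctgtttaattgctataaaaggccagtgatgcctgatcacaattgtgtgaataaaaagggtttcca
Cyp2c70: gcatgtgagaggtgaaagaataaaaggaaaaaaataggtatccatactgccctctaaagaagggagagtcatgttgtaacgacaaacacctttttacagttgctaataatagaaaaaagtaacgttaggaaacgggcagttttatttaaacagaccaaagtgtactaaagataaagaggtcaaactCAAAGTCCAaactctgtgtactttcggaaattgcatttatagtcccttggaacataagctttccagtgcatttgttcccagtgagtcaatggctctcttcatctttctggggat

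When aligned, Cyp2c38 and Cyp2c39 were identical at 79.7% of all bases of this window, with unaligned bases counted as differences. Cyp2c29 matched them at 76.0% and 74.3% on the same scale. CAAAGTCNA, searched on both strands, was found in 6 of the 8 member promoters (Cyp2c29, Cyp2c37, Cyp2c39, Cyp2c40, Cyp2c67 and Cyp2c70) and in 1.04% of all 32851 promoters in the table. This motif was chosen after the sequences had been seen, and the members with a match include called genes of both directions as well as Cyp2c67, which passed in neither. The STAT5 motif TTCNNNGAA was found in 0 of 8, against 8.30% of all promoters. TTGCNNAA, a C/EBP motif, was found in 3 of 8, against 10.8%, and ATCAAT, an HNF6 motif, in 4 of 8, against 7.54%. No match of these motifs overlapped a CAAAGTCNA match in these promoters, and a match is a description of letters only. Several member promoters resemble each other, such as Cyp2c40 and Cyp2c67 at 68.3%, so matches in them are not independent.

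Most of the members that responded were lower in GH livers and 1 was higher. Cyp2c29, Cyp2c37, Cyp2c38, Cyp2c39 and Cyp2c54 fell and Cyp2c70 rose, so that 6 of 10 members passed an adjusted p of 0.05, against a background of 4.79% of the 14235 genes tested. In the lower direction it was 5 of 10 members against 2.52% of genes, and in the higher direction 1 of 10 against 2.27%. The median log2 fold change, GH over PBS, was -0.76 over the members and 0.00054 over all tested genes. In absolute size the medians were 1.22 for the members and 0.13 for all genes. Cyp2c29, Cyp2c37 and Cyp2c38 had GH and PBS values that did not overlap, all lower in GH livers. That is 3 of 10 members, against 3.18% of all genes with such a separation in either direction and 1.72% in the lower one, while 0 of 10 were separated in the higher direction, against 1.45%. Adjusted p values are from edgeR's quasi-likelihood test over all tested genes with Benjamini-Hochberg adjustment. Nothing in the labels states how the numbered livers were obtained, and the p-values rest on the spread among these 12 samples. Since these are whole livers, fewer cells of a type and less RNA per cell cannot be told apart.

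**Figure D1:**
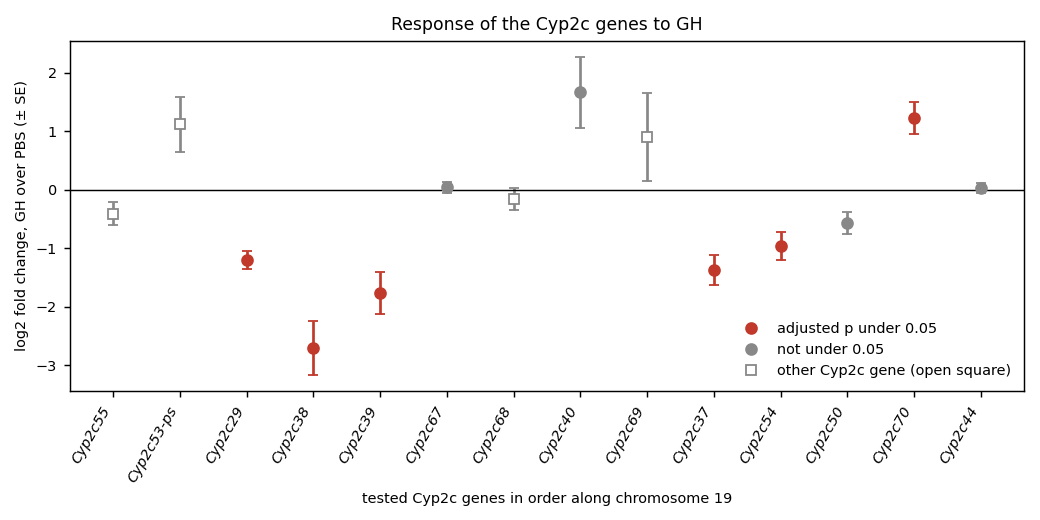
Log2 fold change of GH over PBS livers (vertical axis, with bars of ± 1 SE, n = 6 each) for the 14 tested Cyp2c genes, placed in their order along chromosome 19. Red circles are members with an adjusted p under 0.05, grey circles the other members and open squares tested Cyp2c genes that are no members. Cyp2c38 is lowest at -2.71, Cyp2c70 stands at 1.23, and Cyp2c67 and Cyp2c44 lie close to 0.

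Cyp2c29, which makes epoxides of arachidonic acid and responds to CAR, was the most abundant member in PBS livers. Its CPM in GH livers ran from 519 through a median of 720 to 962, against 1187, 1788 and 2132 in PBS livers. Every GH liver thus lay below every PBS liver. The mean was 751 ± 154 CPM in GH livers and 1721 ± 356 CPM in PBS livers (SD, n = 6 each), a 2.29-fold lower level (log2 fold change -1.20 ± 0.16 SE, adjusted p = 0.000818 by edgeR). Without any 1 library the change stayed between -1.28 and -1.11, with an adjusted p of at most 0.00342. Cyp2c29 overlaps the pseudogene Cyp2c53-ps on the same strand by 142 exonic bases, and Cyp2c53-ps itself had only 2.45 ± 1.40 CPM in GH livers and 1.12 ± 0.550 CPM in PBS livers (adjusted p = 0.216).

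Cyp2c38 and Cyp2c39 form a pair of near-identical neighbours, with 94.2% of coding bases and 92.1% of amino acids in common. Cyp2c38 converts arachidonic acid and Cyp2c39 is known for hydroxylating retinoic acid. Cyp2c38 had the largest fall of the 10, with 2.65, 6.23 and 7.98 CPM (lowest, median and highest) in GH livers against 11.6, 29.7 and 61.1 CPM in PBS livers. Its groups did not overlap, although PBS livers differed among themselves by 5.26 times between the lowest and the highest. The log2 fold change of Cyp2c38 was -2.71 ± 0.46 (SE, adjusted p = 0.00888 by edgeR).

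Cyp2c39 was the scarcest member, with raw counts between 8 and 28 per library in GH livers and between 25 and 107 in PBS livers. On the CPM scale it measured 0.352, 0.743 and 1.28 in GH livers against 1.16, 2.28 and 4.63 in PBS livers. The highest GH liver and the lowest PBS liver thus crossed slightly. Its log2 fold change was -1.76 ± 0.36 (SE, adjusted p = 0.0113 by edgeR). No stretch of 125 bases, the length of 1 read, is shared by the annotated transcripts of Cyp2c38 and Cyp2c39 compared here with each other or with that of another Cyp2c gene. Their summed counts gave a log2 fold change of -2.62 (adjusted p = 0.00970 by edgeR).

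Cyp2c37, Cyp2c54 and Cyp2c50 are also near-identical, with 95.1% to 96.1% of coding bases in common between each pair, and all act on arachidonic acid. Cyp2c37 had 66.6, 120 and 143 CPM in GH livers against 164, 270 and 438 CPM in PBS livers, with no overlap. Its log2 fold change was -1.37 ± 0.25 (SE, adjusted p = 0.0110 by edgeR), and it passed without any 1 library. Cyp2c54 had 108, 181 and 253 CPM in GH livers against 213, 359 and 511 CPM in PBS livers, so the ranges crossed at their ends. Its log2 fold change was -0.96 ± 0.24 (SE, adjusted p = 0.0411 by edgeR). The call of Cyp2c54 is close to the threshold: it was lost without GH 2, GH 3, GH 5 or any PBS library except PBS 5, with adjusted p up to 0.0881, and when no gene was filtered out (0.0973).

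Cyp2c50, the most abundant of the 3, had 347, 651 and 795 CPM in GH livers against 585, 935 and 1185 CPM in PBS livers. These ranges overlapped, and the log2 fold change was -0.57 ± 0.20 (SE, 95% interval -0.99 to -0.14), which missed the threshold (adjusted p = 0.131 by edgeR). It passed without PBS 5 (-0.67, adjusted p = 0.0399), without GH 6 and PBS 5 together (-0.55, adjusted p = 0.00173) and by DESeq2 (adjusted p = 0.0348), in a range of 0.00173 to 0.299 over all settings tried. Counts summed over Cyp2c37, Cyp2c50 and Cyp2c54 were 942 ± 233 CPM in GH livers and 1610 ± 420 CPM in PBS livers. The sum differed by -0.77 ± 0.21 on the log2 scale (SE, adjusted p = 0.0580 by edgeR), so the calls of Cyp2c37 and Cyp2c54 do not carry over to it. Of all 125-base windows in each transcript, 1.76% in Cyp2c37, 4.45% in Cyp2c54 and 6.16% in Cyp2c50 were shared with another copy. Windows start at every base and overlap, so these are not shares of transcript bases.

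Cyp2c70, which in mice hydroxylates bile acids to form muricholic acids, was the member that rose. It had 611, 1870 and 2067 CPM in GH livers against 501, 719 and 991 CPM in PBS livers. Of the GH livers, 5 lay above every PBS liver, and GH 6 (611 CPM) lay below the PBS mean. The mean was 1703 ± 547 CPM in GH livers and 724 ± 173 CPM in PBS livers (SD, n = 6 each), 2.35-fold higher (log2 fold change 1.23 ± 0.27 SE, adjusted p = 0.0245 by edgeR). Without GH 6 the change was 1.41 (adjusted p = 5.24e-05). The call was lost without GH 1, GH 2, GH 3, GH 4 or PBS 6, with adjusted p up to 0.0550 and changes between 1.17 and 1.24, and when no gene was filtered out (0.0556). Cyp2c70 shares no stretch of 125 bases with another Cyp2c transcript.

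**Figure D2:**
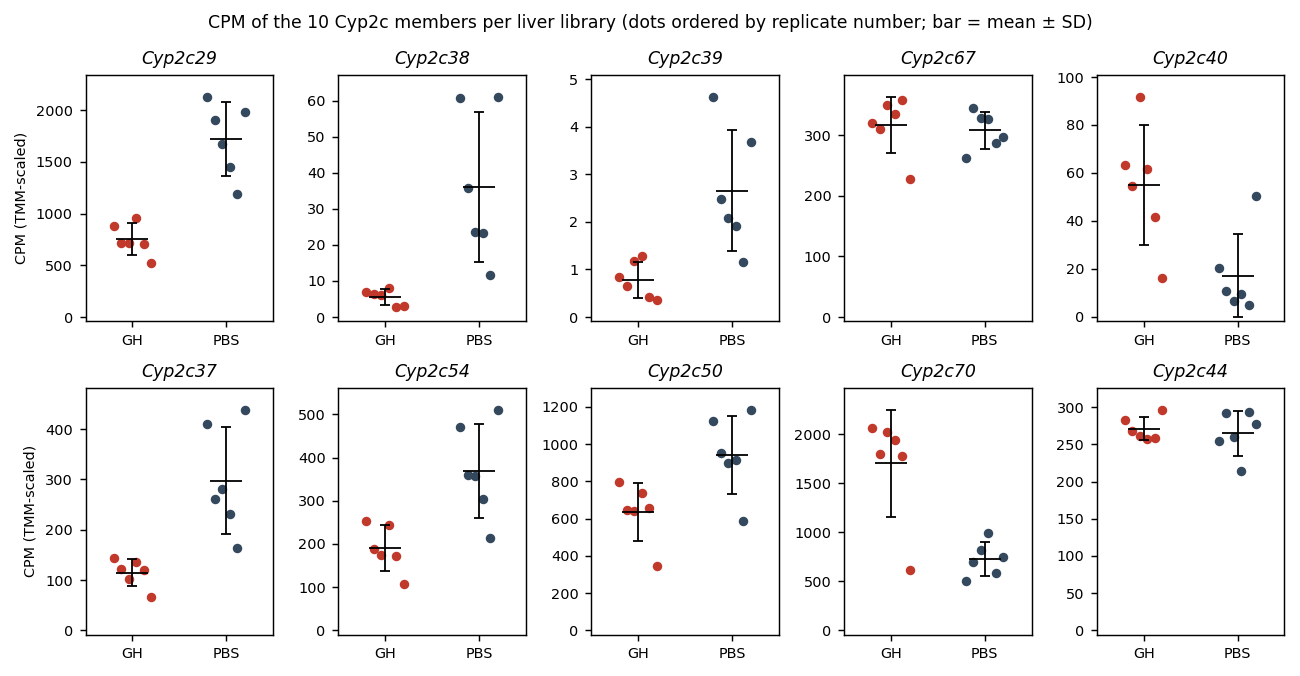
CPM of each of the 10 members (vertical axes, each with its own scale and drawn down to 0) in the 6 GH livers (red) and the 6 PBS livers (dark blue), with the mean and SD as bars and points placed by replicate number. Cyp2c29, Cyp2c37 and Cyp2c38 show separate groups, and 1 GH liver at 611 CPM of Cyp2c70 stands far below the other 5.

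Cyp2c40 and Cyp2c67 belong to a set of 4 close copies with Cyp2c68 and Cyp2c69, which lie side by side on the minus strand. Cyp2c40, an arachidonic acid hydroxylase that is more abundant in female mouse liver, had 16.4, 58.1 and 91.8 CPM in GH livers against 4.93, 10.3 and 50.5 CPM in PBS livers. The groups overlapped, since PBS 6 (50.5 CPM) and PBS 1 (20.3 CPM) lay above the lowest GH liver, and PBS 6 lay far above the other PBS livers. The log2 fold change was 1.67 ± 0.61 (SE, 95% interval 0.32 to 3.02), which missed the threshold (adjusted p = 0.166 by edgeR). It passed only without PBS 6 (2.39, adjusted p = 0.0329), and the adjusted p of Cyp2c40 alone ran from 0.0329 to 0.281 over all settings. Cyp2c67 had 228, 327 and 358 CPM in GH livers against 263, 312 and 345 CPM in PBS livers. The log2 fold change of Cyp2c67 was 0.04 ± 0.10 (SE, 95% interval -0.17 to 0.26, adjusted p = 0.875 by edgeR), and its sign was negative without PBS 1 (-0.0025) or with scaling by library totals alone (-0.019).

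The 4 copies share long stretches of sequence. Of all 125-base windows, 36.5% in the Cyp2c40 transcript, 17.5% in Cyp2c67, 13.9% in Cyp2c68 and 30.3% in Cyp2c69 were shared with another copy. These too are shares of overlapping windows and not of transcript bases. The last 60 coding bases, shown to let the copies be compared by eye, are those at chr19:39767306-39767365 (Cyp2c40), chr19:39609077-39609136 (Cyp2c67), chr19:39689069-39689128 (Cyp2c68) and chr19:39842892-39842951 (Cyp2c69), all GRCm38, minus strand. Capitals mark bases that differ from Cyp2c40.
Cyp2c40: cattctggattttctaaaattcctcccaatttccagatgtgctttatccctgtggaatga
Cyp2c67: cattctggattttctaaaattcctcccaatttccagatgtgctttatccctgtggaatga
Cyp2c68: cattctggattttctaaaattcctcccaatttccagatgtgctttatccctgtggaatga
Cyp2c69: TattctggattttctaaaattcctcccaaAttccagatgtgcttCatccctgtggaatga

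Over these 60 bases Cyp2c40, Cyp2c67 and Cyp2c68 were the same, and Cyp2c69 differed at 3. Cyp2c68 averaged 210 ± 53.1 CPM in GH livers and 233 ± 52.2 CPM in PBS livers (adjusted p = 0.731 by edgeR). Cyp2c69, a female-biased gene, averaged 13.9 ± 8.78 CPM in GH livers and 7.35 ± 8.64 CPM in PBS livers (adjusted p = 0.576 by edgeR), and PBS 6 was its highest PBS liver too, at 24.1 CPM. Summed over the 4 copies, counts were 595 ± 124 CPM in GH livers and 565 ± 72.4 CPM in PBS livers, with a log2 fold change of 0.08 (adjusted p = 0.821 by edgeR). No source used here says how reads that match several copies were counted, so the split between Cyp2c40 and its copies is uncertain.

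Cyp2c44, which makes arachidonic acid epoxides and lies outside the cluster, varied little, by 1.15 times between the lowest and the highest GH liver and by 1.37 times among PBS livers. It measured 257, 265 and 296 CPM in GH livers against 214, 268 and 293 CPM in PBS livers. The groups overlapped throughout, with a log2 fold change of 0.03 ± 0.08 (SE, 95% interval -0.14 to 0.20, adjusted p = 0.876 by edgeR). Its sign was negative without PBS 4 (-0.023) or with scaling by library totals alone (-0.026).

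Among the other Cyp2c rows, Cyp2c55, known mainly from the intestine, averaged 2.18 ± 0.626 CPM in GH livers and 2.90 ± 0.546 CPM in PBS livers (log2 fold change -0.41, adjusted p = 0.274 by edgeR). Cyp2c65 had 8 counts and Cyp2c66 had 5 counts in all 12 libraries together, too few to be tested.

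The make-up of the Cyp2c transcript pool differed between the groups while its summed level overlapped. Levels between genes were compared as CPM per kb of merged exon length. This length exceeds that of the transcript used to compare copies unevenly. It is 3061 against 1783 bases for Cyp2c29, 2918 against 1812 for Cyp2c50 and 1981 against 1717 for Cyp2c70. Shares and orders by transcript length were not computed and could differ. The members summed to 1830 ± 438 CPM per kb in GH livers and 1944 ± 303 CPM per kb in PBS livers, and without length correction they took 0.405% ± 0.0951 of all counts in GH livers and 0.468% ± 0.0768 in PBS livers (SD, n = 6 each). Of the per-kb sum, Cyp2c70 made up 45.7% ± 6.98 in GH livers and 19.1% ± 5.03 in PBS livers. Cyp2c29 made up 13.7% ± 2.11 in GH livers and 28.8% ± 2.74 in PBS livers. No share of Cyp2c70 in a PBS liver (26.5% at most) reached the lowest in a GH liver, 31.7%, which was GH 6. These shares are a description and were not tested apart from the ratios given below.

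The orders given next hold for merged exon length only. In GH livers the order of mean CPM per kb was Cyp2c70, Cyp2c29, Cyp2c50, Cyp2c67, Cyp2c44, Cyp2c54, Cyp2c37, Cyp2c40, Cyp2c38 and Cyp2c39. Neighbours in that order overlapped between livers except Cyp2c40 above Cyp2c38 and Cyp2c38 above Cyp2c39. In PBS livers the order was Cyp2c29, Cyp2c70, Cyp2c50, Cyp2c54, Cyp2c67, Cyp2c37, Cyp2c44, Cyp2c38, Cyp2c40 and Cyp2c39, and the only neighbours whose ranges were separate were Cyp2c44 (98.96 to 136 CPM per kb) and Cyp2c38 (4.05 to 21.3 CPM per kb).

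**Figure D3:**
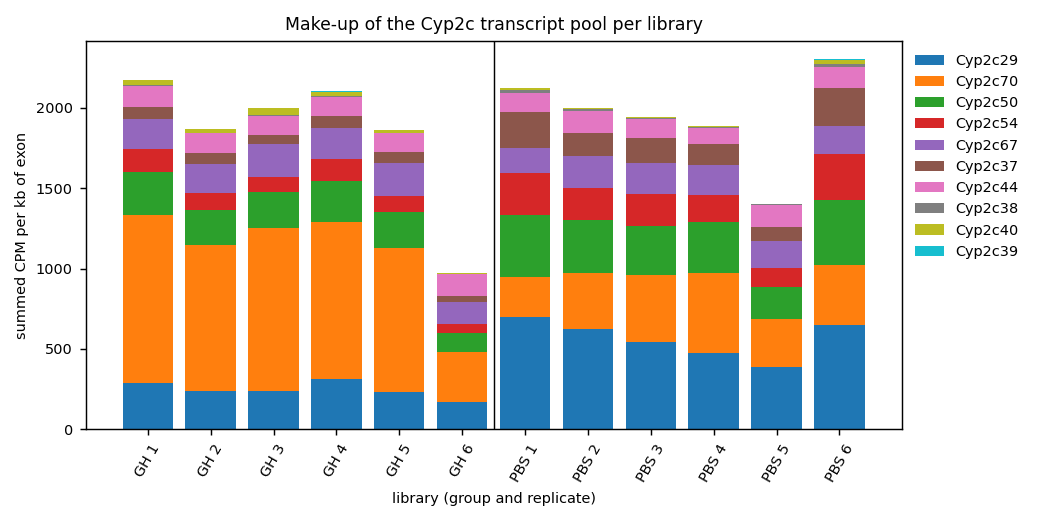
Summed CPM per kb of merged exon length (vertical axis) of the 10 members in each library, GH livers left and PBS livers right, with 1 colour per gene. The orange band of Cyp2c70 fills 45.7% of the bar on average in GH livers and 19.1% in PBS livers, and GH 6 has the shortest bar at 973 CPM per kb.

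Members of 1 close group differed in how far they moved. The log2 ratio of 2 members within each library was compared between groups with an exact two-sided permutation test, which cannot give a p below 0.00216 with 6 against 6. This ratio does not depend on library scaling, apart from 0.5 CPM added to each value. Of 45 pairs, which share members and are not independent, 39 had an adjusted p under 0.05 over the pairs. The share among pairs of other genes was not counted. Cyp2c37 fell more than Cyp2c50: their log2 ratio was -2.46 ± 0.0888 in GH livers and -1.71 ± 0.227 in PBS livers (SD, difference -0.76, exact p = 0.00216, adjusted 0.00336). Cyp2c37 also fell more than Cyp2c54 (difference -0.38), and Cyp2c54 more than Cyp2c50, with a Cyp2c50 to Cyp2c54 ratio of 1.75 ± 0.127 in GH livers and 1.37 ± 0.139 in PBS livers (difference 0.37). In all 3 of these pairs the groups did not overlap and the exact permutation p was 0.00216.

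Cyp2c38 fell more than Cyp2c39, with a log2 ratio of 2.19 ± 0.308 in GH livers and 3.41 ± 0.356 in PBS livers (difference -1.22, exact p = 0.00216). With nothing added to the low CPM of Cyp2c39 the difference was -0.82, at the same exact p. The Cyp2c29 to Cyp2c70 ratio was -1.10 ± 0.452 in GH livers and 1.26 ± 0.524 in PBS livers (difference -2.36, exact p = 0.00216). In CPM, without length correction, Cyp2c70 thus exceeded Cyp2c29 in every GH liver and was below it in every PBS liver. Per kb of merged exon length, Cyp2c70 was above Cyp2c29 in PBS 4 as well (500 against 474 CPM per kb). The Cyp2c40 to Cyp2c67 ratio was -2.67 ± 0.652 in GH livers and -4.57 ± 1.23 in PBS livers, with overlapping groups (difference 1.90, exact p = 0.0130, adjusted 0.0167).

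The 6 pairs that missed the threshold were Cyp2c29 with Cyp2c37, Cyp2c29 with Cyp2c39, Cyp2c37 with Cyp2c39, Cyp2c39 with Cyp2c54, Cyp2c40 with Cyp2c70 and Cyp2c44 with Cyp2c67. For Cyp2c29 over Cyp2c37 the log2 ratio was 2.72 ± 0.163 in GH livers and 2.58 ± 0.271 in PBS livers (difference 0.14, exact permutation p = 0.318). All of these pairs that hold the scarce Cyp2c39 depended on the added value. Cyp2c39 over Cyp2c54 gave a difference of -0.30 (adjusted p = 0.107) as computed and -0.82 (adjusted p = 0.0162) with nothing added, both by the exact permutation test. With nothing added, the same test gave 0.58 for Cyp2c29 over Cyp2c39 (adjusted p = 0.0713) and 0.44 for Cyp2c37 over Cyp2c39 (adjusted p = 0.141). As computed these differences were 0.06 and -0.08, and with 1 CPM added -0.20 and -0.34. Whether Cyp2c39 fell as far as Cyp2c29 and Cyp2c37 is thus not settled by these ratios. Without GH 6 and PBS 5 together, 39 pairs passed again.

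**Figure D4:**
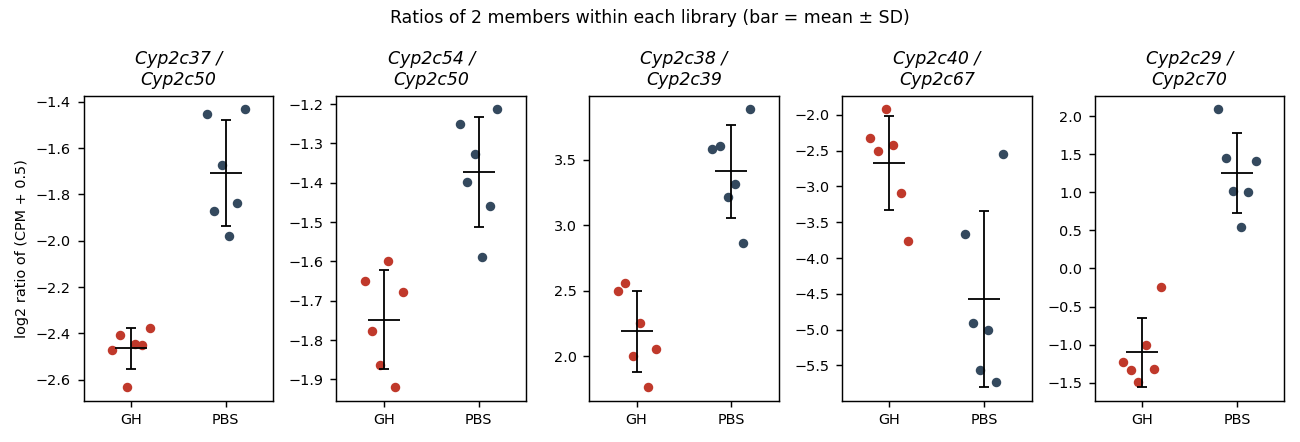
Log2 ratio of CPM + 0.5 between 2 members in each library (vertical axes, each with its own scale) for 5 pairs, GH livers in red on the left and PBS livers in dark blue on the right, with the mean and SD as bars. The ratio of Cyp2c29 to Cyp2c70 lies below 0 in all 6 GH livers and above 0 in all 6 PBS livers, and only the Cyp2c40 to Cyp2c67 ratio overlaps between groups.

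Livers of 1 group also differed from each other, and many members did so together. GH 6 had the lowest GH value of 8 of the 10 members and the highest of Cyp2c44, and PBS 5 had the lowest PBS value of 7 members. After the group mean of log2 CPM was removed, the 45 pairs were correlated over the 12 libraries (permutation within groups, 100000 resamples). At an adjusted p under 0.05 over the pairs, 22 correlated positively and 0 negatively. How many pairs of other genes would pass was not counted. Cyp2c37 and Cyp2c54 were closest, with Pearson r = 0.971 (permutation p = 4e-05) and Spearman rho = 0.923 (permutation p = 0.0001), and r = 0.919 without GH 6 and PBS 5. Cyp2c38 and Cyp2c39 gave r = 0.933 (permutation p = 7e-05) and rho = 0.902 (permutation p = 0.00048), and r = 0.900 without GH 5 and PBS 5.

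Cyp2c40 varied with the members that fell although its own mean was higher in GH livers. With Cyp2c38 it gave r = 0.840 (permutation p = 0.00098) and rho = 0.860 (permutation p = 0.00144), and r = 0.886 without GH 5 and PBS 5. With Cyp2c29 it gave r = 0.743 (permutation p = 0.00986) and rho = 0.720 (permutation p = 0.0150). Without GH 6 and PBS 5 this r was 0.467, so its size depended in part on those 2 livers. Cyp2c70 correlated past the threshold with Cyp2c67 alone, at r = 0.890 (permutation p = 0.00834) and rho = 0.524 (permutation p = 0.0911), and r fell to 0.425 without GH 6 and PBS 1. Cyp2c44 passed with 0 of the other 9 members.

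**Figure D5:**
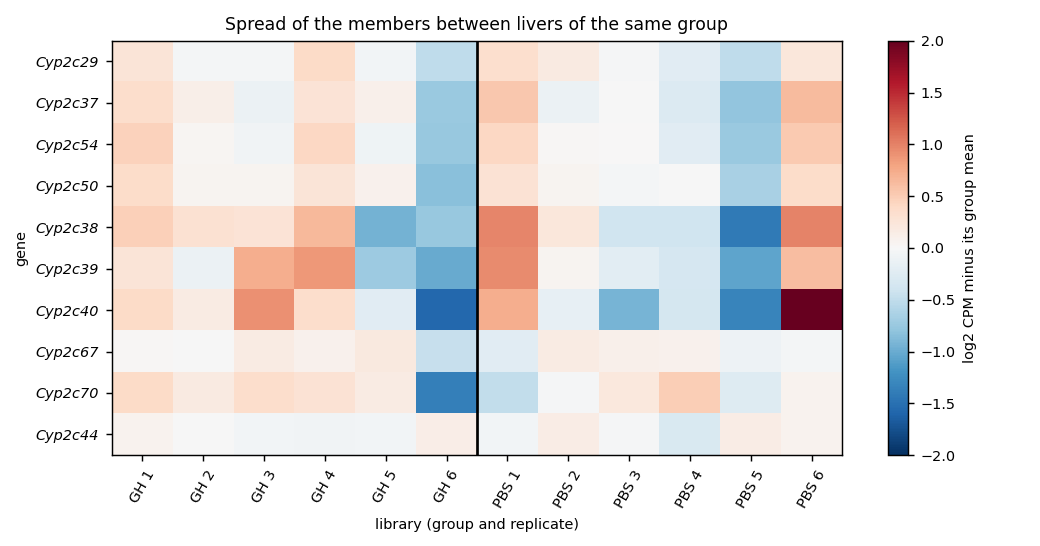
Log2 CPM of each member minus the mean of its own group (colour scale, limited to -2 and 2), with the 6 GH livers left of the black line and the 6 PBS livers right of it. GH 6 and PBS 5 are blue for most members, PBS 1 and PBS 6 are red for Cyp2c38, Cyp2c39 and Cyp2c40, and Cyp2c44 is nearly white throughout.

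The genes outside the family whose log2 CPM followed Cyp2c29 most closely within groups were ranked among 14221 genes over the 12 libraries. Mospd2 came first (r = 0.968), followed by Ugt1a5 (r = 0.939), Ugt1a10 (r = 0.936), Ugt1a9 (r = 0.936) and Ugt1a2 (r = 0.934). Without GH 6 and PBS 5, r was 0.923 for Mospd2 and between 0.819 (Ugt1a10) and 0.833 (Ugt1a5) for the Ugt1a genes. The Ugt1a genes share exons and so count many of the same reads. Their log2 fold changes were -0.31 for Mospd2 (adjusted p = 0.0879 by edgeR) and between -0.35 (Ugt1a5) and -0.27 (Ugt1a10), and none of the 5 passed the threshold.

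Other genes of the pathways around Cyp2c were counted from lists chosen with earlier results of these data known. For comparison with each list below, 2.27% of all 14235 tested genes rose and 2.52% fell at the same threshold. Of 4 tested electron transfer partners of P450 enzymes, 0 rose and 1 fell (median log2 fold change -0.09). That gene was Por, the oxidoreductase that feeds electrons to every microsomal P450, with 42.8 CPM in GH livers against 113 CPM in PBS livers (log2 fold change -1.40, adjusted p = 0.0216 by edgeR). Its groups met at their ends, with 84.0 CPM in the highest GH liver and 77.9 CPM in the lowest PBS liver. The Por call was lost without GH 1, GH 3, GH 4 or GH 5 (adjusted p up to 0.0543).

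Among 15 tested enzymes that make or break down other arachidonic acid products, 2 rose and 2 fell (median -0.02). Cyp4a12a (log2 fold change 1.03, adjusted p = 0.0396) and Cyp4a12b (1.13, adjusted p = 0.0327), hydroxylases that are male-biased in mice, rose, and Cyp4a14 (-5.07, adjusted p = 0.0271) and Cyp4a32 (-0.57, adjusted p = 0.0396) fell by the edgeR test. Cyp4a14 averaged 4.50 CPM in GH livers and 150 CPM in PBS livers, where its values spread from 10.3 to 433 CPM. These 4 calls were near the threshold. Cyp4a12a was lost without any 1 library other than GH 6 or PBS 4 (adjusted p up to 0.0866) and when no gene was filtered out (0.0870). Cyp4a12b was lost without any other than PBS 1, PBS 2 or PBS 5 (up to 0.0708) and when no gene was filtered out (0.0700). Cyp4a14 was lost without GH 2, GH 3, GH 4, GH 5 or PBS 6 (up to 0.0653), and Cyp4a32 without any other than GH 6, PBS 3 or PBS 4 (up to 0.0935).

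Of 21 tested regulators of Cyp2c or of sex-biased liver genes, 0 rose and 1 fell (median 0.04), beside 4.79% of all tested genes called in either direction. That one was Onecut1, which encodes the hepatocyte factor HNF6, with 1.67 CPM in GH livers against 20.4 CPM in PBS livers (log2 fold change -3.60, adjusted p = 0.00167 by edgeR) and no overlap.

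Of 24 tested known targets of CAR and PXR, 1 rose and 5 fell (median -0.31). Gstt1, a glutathione transferase, averaged 78.5 CPM in GH livers and 155 CPM in PBS livers (log2 fold change -0.99, adjusted p = 1.23e-05 by edgeR). Sult1a1, a sulfotransferase, changed by -0.82 on the log2 scale (adjusted p = 0.00783 by edgeR). Alas1, the first enzyme of heme synthesis, changed by -1.93 (adjusted p = 0.0202 by edgeR), a call lost without GH 2 or GH 3 (up to 0.0518). Fmo5, a flavin monooxygenase, was the gene that rose (0.37, adjusted p = 0.0279 by edgeR), and it was lost without GH 1, GH 2, GH 4, PBS 1, PBS 2, PBS 3 or PBS 6 (up to 0.0656) or with scaling by library totals alone (0.0536). Gstm1 (-0.37) and Aldh1a1 (-0.61), named to complete the count, also fell, with adjusted p of 0.0377 and 0.0422. Gstm1 was lost without 7 of the 12 libraries in turn (adjusted p up to 0.0954) and Aldh1a1 without 10 of them (up to 0.0898) and when no gene was filtered out (0.143).

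Of 14 tested genes of bile acid synthesis and transport, the pathway in which Cyp2c70 works, 3 rose and 2 fell (median -0.04). Cyp7b1, an oxysterol hydroxylase that is male-biased in mice, averaged 655 CPM in GH livers and 206 CPM in PBS livers (log2 fold change 1.67, adjusted p = 0.000935 by edgeR). Amacr (0.43, adjusted p = 0.000676) and Acox2 (0.36, adjusted p = 0.00542), enzymes of side-chain shortening, rose too, and Akr1d1 (-0.40, adjusted p = 0.00626), a steroid reductase, fell, all by the edgeR test and without overlap between groups. Cyp7a1, which starts the classical route of synthesis and completes the count, changed by -1.80 on the log2 scale (adjusted p = 0.0446 by edgeR), and its call was lost without any 1 library other than PBS 1 or PBS 2 (up to 0.101), without GH 6 and PBS 5 together (0.0916) and when no gene was filtered out (0.0776).

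The liver markers were then set beside these values, and beside the 2.27% of all tested genes that rose and the 2.52% that fell. Of 6 hepatocyte markers, 0 rose and 0 fell, with a summed level of 96447 to 118280 CPM in GH livers and 110061 to 124251 CPM in PBS livers. The 10 pericentral markers, of the zone where many P450 enzymes are made, summed to 6571 to 8213 CPM in GH livers and 5341 to 10427 CPM in PBS livers, with 1 that rose (Cyp1a2, log2 fold change 0.67, adjusted p = 0.00182 by edgeR). The 10 periportal markers summed to 6894 to 9675 CPM in GH livers and 7272 to 11035 CPM in PBS livers, with 1 that rose (Cyp2f2) and 1 that fell (Ctsc). Of 8 stellate cell markers 1 fell (Dcn, -0.38, adjusted p = 0.00296 by edgeR), and of 7 Kupffer cell, 8 endothelial, 6 cholangiocyte and 2 tested lymphocyte markers none rose or fell. The 5 small intestine markers summed to 38.9 to 59.2 CPM in GH livers and 37.4 to 58.8 CPM in PBS livers, nearly all from Fabp2 (51.0 CPM in GH livers and 46.2 CPM in PBS livers, adjusted p = 0.586 by edgeR), while Lct, Alpi and Cdx2 had 0 counts in every library. The part of these cell types in the Cyp2c values was not tested.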

How the data were processed

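Livers of 6 GH-treated and 6 PBS-treated germ-free mice were sequenced from both ends for 125 cycles after ribosomal RNA depletion with a stranded kit, per the labels' protocols. The submitters' processing notes name STAR 2.4.0i and mm10, and no source used here names the counting program or its rule for reads that match several genes. The authors deposited raw counts of exonic reads per gene. Members, gene lists and motifs were chosen with earlier results of these data known.

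In R 4.3.3, edgeR 4.0.16 filtered genes (filterByExpr, minimum count 10), scaled libraries by TMM and ran the robust quasi-likelihood test, two-sided and without covariates, with Benjamini-Hochberg adjustment over 14235 genes. SE are the log2 fold change over the square root of F. The alternatives were DESeq2 1.42.0, other scaling and filters, a replicate block, summed copies and fits without single libraries. Pair ratios with nothing added, or without GH 6 and PBS 5, were added after the data were seen. The fits were tested on simulated data. Named genes were the members, the other Cyp2c rows, up to 4 called genes per list and the 5 genes most like Cyp2c29, the member with both the highest mean CPM and the smallest adjusted p. Gstm1, Aldh1a1, Cyp7a1 and the called cell type markers were chosen after their values were seen. Copies were compared on GENCODE M21 coding sequences and their translation (Biopython 1.88), with 90% of amino acids as the limit for near-identical. The labels do not say what the replicate numbers share. Same-numbered livers correlated at -0.175 to 0.159 after group means were removed, which cannot show whether the numbers share a condition.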

Additional observations from a re-analysis of the deposited data

Results flagged for a closer look

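Of 28 groups of 6 livers, 14 Cyp2c genes in GH and in PBS, 5 held a library far from the rest by Dixon's criterion. Chance gives about 1 in 20 for independent groups of normally spread values. These groups are not independent, so the count cannot be set against that rate. In GH 6 the level was low for Cyp2c50 (347 CPM), Cyp2c67 (228 CPM) and Cyp2c70 (611 CPM). In PBS 6 it was high for Cyp2c40 (50.5 CPM) and its close copy Cyp2c69 (24.1 CPM). Both genes can share reads, so these 2 values are not independent. The GH 6 values are not independent either, since these genes varied together among GH livers (r from 0.873 to 0.970). Whether anything about the animals or libraries sets GH 6 and PBS 6 apart was not tested.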

How the results depend on the processing

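Cyp2c29, Cyp2c38 and Cyp2c39 passed in the same direction under every alternative run. Without single libraries, 0 to 1 members were higher and 4 to 6 lower, 3 to 8 listed companion genes were higher and 4 to 13 lower, and 434 to 854 genes passed in all (193 to 410 higher, 241 to 444 lower). With all genes kept, 0 members were higher. A replicate block, for numbers whose meaning the labels do not give, left 391 genes (180 higher, 211 lower), with 0 members higher and 3 lower. With the block the adjusted p was 0.0729 for Cyp2c37, 0.115 for Cyp2c54 and 0.0948 for Cyp2c70, and among the listed genes Cyp4a12b, Gstm1, Aldh1a1, Fmo5, Alas1 and Cyp7a1 missed the threshold (0.0687 to 0.140). Other listed genes had a smaller adjusted p with the block, such as Cyp4a12a (0.000875), Por (0.00646) and Sult1a1 (0.00297), all by edgeR. With the block 34 pair ratios passed, against 39. DESeq2 called 1058 genes (504 higher, 554 lower), and without GH 6 and PBS 5 together 518 were higher. Scaling by library totals called 211 higher and 658 lower, 24.3% higher against 47.4%, with the median of all genes at -0.059, and turned Cyp2c44 to -0.026 and Cyp2c67 to -0.019. Without single libraries Cyp2c44 ran from -0.023 (without PBS 4) to 0.062 and Cyp2c67 from -0.0025 (without PBS 1) to 0.12. The cause was not tested. Depth limits Cyp2c39, with as few as 8 counts in a library.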
